A study of Mus musculus with 14 samples.

Results

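The genes of cytosolic ribosomal proteins were described by their PRDM16 peaks in embryonic mouse ventricles. The members were the 81 protein-coding genes of GRCm38 with symbols such as Rps6, Rpl27, Rplp1 or Rpsa, of 21887 protein-coding genes in all; 31 encode proteins of the small subunit and 50 of the large subunit, the acidic stalk included. A peak was given to a member when that gene was the nearest protein-coding gene to the peak's summit, which gave 25 of the 17587 wild-type (WT) peaks, at 12 genes. Binding of PRDM16 had been measured by chromatin immunoprecipitation and sequencing (ChIP-seq) in C57BL/6 mice at E13.5 (embryonic day). The series holds 14 samples, 7 PRDM16 ChIP libraries and 7 inputs without antibody. Whole ventricles without atria gave 2 WT ChIP libraries and 2 inputs, and the Prdm16 conditional knockout (Prdm16cKO) gave 1 of each, with 3 hearts in every pool. The left ventricle (LV) and right ventricle (RV) of WT embryos gave 2 ChIP libraries and 2 inputs each, from pools of 10 to 12 ventricles. The sources used here do not name the line that drives the conditional deletion.

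PRDM16 is a zinc-finger transcription factor with a PR domain that recruits chromatin regulators, and it is known in the heart for its part in the growth of the ventricular wall. Ribosomal protein genes are transcribed at high rates in nearly every cell and supply the proteins of the small and large ribosomal subunits in matched amounts. Their promoters are short and rich in CpG, often hold motifs of ETS, SP and YY1 factors, and start within a run of pyrimidines that places the mRNA under the control of mTOR and LARP1. Genes of this family are short and lie in gene-dense regions, and their many processed pseudogenes carry copies of the mRNA elsewhere in the genome.

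Start sites came from a RefSeq table of promoters, each covering 250 bases before to 50 after a start site. It matched 61 of the 81 members, in 73 windows. Of the genes with a peak, Rps20, Rps29, Rpl29, Rpl36 and Rplp1 were not among them. A WT summit lay within 250 bp of the start site of 6 of 61 members (9.84%), against 8.55% of the 17492 protein-coding genes of that table. All 6 summits were upstream of the nearest start site given there. They lay 212 bases before the start of Rps6, 157 before Rps21, 110 before Rplp2 and 89 before Rpl31. The others lay 23 before Rpl34, though inside its gene body, and 11 before Rpl27. Of all protein-coding genes with a summit in that distance, 53.6% had it upstream. The promoters of these 6 members are printed because they are the members' windows that a summit reached (RefSeq, GRCm38.p6). They are given 5′ to 3′ on the gene's strand with capitals for the letters CCGGAA (ETS) and GGGCGG (GC box) on either strand; AAGATGGC (YY1) was searched too and matched none of them. The windows are chr2:180257129-180257428 on the plus strand for Rps21, chr3:130730288-130730587 on the minus strand for Rpl34, chr1:39367601-39367900 on the plus strand for Rpl31, chr4:86857318-86857617 on the minus strand for Rps6, chr11:101441995-101442294 on the plus strand for Rpl27 and chr7:141447401-141447700 on the plus strand for Rplp2.
Rps21: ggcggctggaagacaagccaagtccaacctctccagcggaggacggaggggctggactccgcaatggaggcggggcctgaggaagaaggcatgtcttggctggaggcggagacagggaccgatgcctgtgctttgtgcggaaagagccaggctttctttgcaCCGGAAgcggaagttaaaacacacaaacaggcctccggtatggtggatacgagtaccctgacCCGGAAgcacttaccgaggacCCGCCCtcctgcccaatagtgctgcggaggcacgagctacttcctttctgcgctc
Rpl34: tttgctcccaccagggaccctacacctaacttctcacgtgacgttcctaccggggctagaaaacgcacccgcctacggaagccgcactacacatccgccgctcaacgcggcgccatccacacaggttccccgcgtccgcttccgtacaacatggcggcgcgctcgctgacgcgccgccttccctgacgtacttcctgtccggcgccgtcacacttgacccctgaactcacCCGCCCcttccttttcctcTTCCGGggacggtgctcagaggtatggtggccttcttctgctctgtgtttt
Rpl31: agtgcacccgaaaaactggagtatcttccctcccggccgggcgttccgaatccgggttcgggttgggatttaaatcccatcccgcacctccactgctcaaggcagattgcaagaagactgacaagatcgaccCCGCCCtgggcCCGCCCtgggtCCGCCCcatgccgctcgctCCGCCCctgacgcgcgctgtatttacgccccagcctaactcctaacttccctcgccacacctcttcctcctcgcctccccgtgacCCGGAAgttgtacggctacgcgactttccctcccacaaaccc
Rps6: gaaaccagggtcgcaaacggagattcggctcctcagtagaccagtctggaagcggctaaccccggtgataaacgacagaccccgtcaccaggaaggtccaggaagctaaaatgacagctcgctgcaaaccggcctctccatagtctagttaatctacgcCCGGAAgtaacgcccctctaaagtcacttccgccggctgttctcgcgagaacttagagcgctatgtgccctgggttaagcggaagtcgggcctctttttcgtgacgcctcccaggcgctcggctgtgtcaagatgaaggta
Rpl27: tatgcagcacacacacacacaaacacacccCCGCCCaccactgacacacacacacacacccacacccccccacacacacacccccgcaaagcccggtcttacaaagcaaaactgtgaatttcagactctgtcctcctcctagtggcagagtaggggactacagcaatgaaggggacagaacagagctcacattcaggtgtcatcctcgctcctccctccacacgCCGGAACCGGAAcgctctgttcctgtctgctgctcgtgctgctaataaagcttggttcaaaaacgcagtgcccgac
Rplp2: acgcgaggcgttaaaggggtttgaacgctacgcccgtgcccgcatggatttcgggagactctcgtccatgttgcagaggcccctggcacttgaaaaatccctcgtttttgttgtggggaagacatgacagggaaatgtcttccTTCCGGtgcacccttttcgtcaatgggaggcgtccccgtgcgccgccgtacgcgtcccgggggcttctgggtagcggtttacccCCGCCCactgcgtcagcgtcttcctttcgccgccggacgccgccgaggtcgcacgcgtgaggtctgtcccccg

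**Figure D1:**
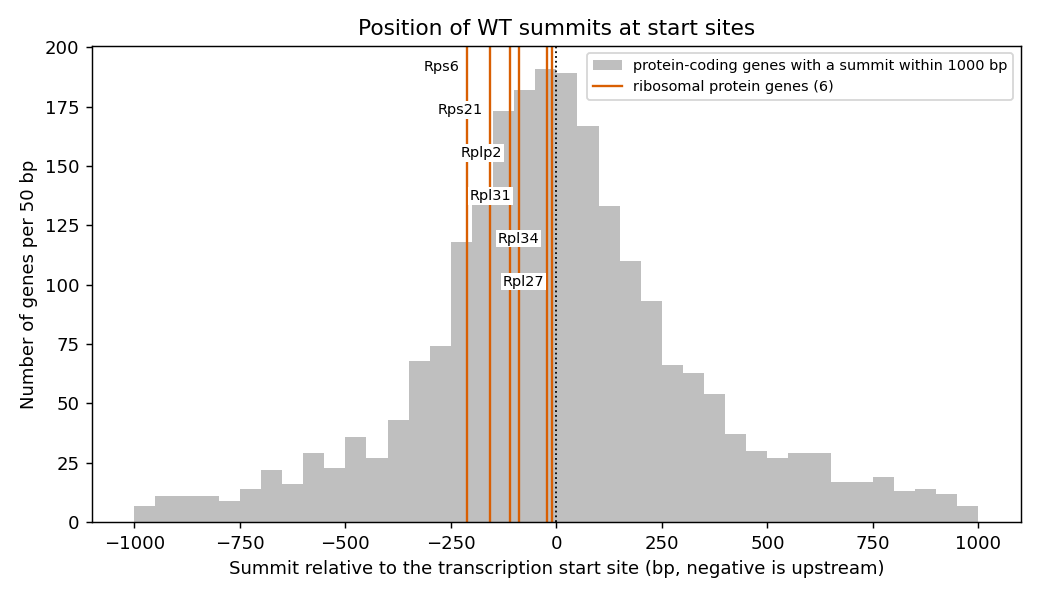
Distance of WT peak summits from the transcription start site, in bp with upstream negative, as the number of protein-coding genes per 50 bp (grey bars, genes with a summit within 1000 bp). Orange lines mark the 6 ribosomal protein genes, all of them upstream of the dotted start site, between 212 and 11 bp.

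All 6 printed promoters held at least 1 ETS match, and 5 of them a GC box, the exception being Rps6. In Rplp2 the ETS match began at base 144 of the window and the summit lay at base 141, the closest approach among the 6. In Rpl27 a pair of adjoining ETS matches began at bases 225 and 231, with the summit at base 240. In Rpl34 the match began at base 250, 22 bases downstream of the summit at base 228. The remaining promoters had their matches further off, with the summit of Rps21 at base 94 and matches at 163 and 225, that of Rpl31 at base 162 with a match at 259, and that of Rps6 at base 39 with a match at 160. Rpl31 held 4 GC boxes, at bases 133, 144, 155 and 174, on both sides of its summit.

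Over all windows of the family, 34 of 73 (46.6%) held the ETS letters, against 18.7% of 21263 windows of protein-coding genes. The GC box was in 42 (57.5%) against 46.2%, and the YY1 letters in 7 (9.59%) against 3.05%. Among windows of genes with a summit within 250 bp, the ETS letters were in 7 of 8 windows of these members (87.5%) and in 24.5% of 1611 windows of all protein-coding genes, and the GC box in 87.5% and 67.6%. The 8 windows belong to 6 genes. In the members' 65 windows without such a summit, the ETS letters were in 41.5% and the GC box in 53.8%. Other letters searched on both strands were CTTTC of the pyrimidine tract (80.8% of the members' windows, 55.0% of all protein-coding), CCAAT of NFY (30.1% and 38.2%), TATAAA of TATA boxes (9.59% and 12.6%) and CACGTG of the E-box (11.0% and 7.84%). CATTCC of TEAD factors was in 8.22% and 13.6%, AGATAA of GATA factors in 6.85% and 9.65%, and AGGTGTGA of T-box factors in 0 and 1.15%. On the sense strand alone and from 10 bases before to 12 after the start, CTTTC was in 12 of 73 (16.4%) against 2.53%. Searched on both strands, CTTTC was in 50% of the members' 8 windows with a summit and 84.6% of their 65 without. The YY1, TATA, TEAD, GATA and T-box letters were in 0 of the 8, and the E-box and NFY letters in 25% each. No motif's letters hold those of another, and a match describes the window without showing that a factor binds there.

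Across the family, 12 of 81 genes (14.8%) were the nearest protein-coding gene of a WT peak, against 32.6% of all protein-coding genes. These genes are short, with a median length of 3175 bp against 17169 bp for all. Among the 8615 protein-coding genes within the members' range of lengths, 592 to 11774 bp, the share was 15.8%, close to that of the members. The small subunit contributed Rps6, Rps20, Rps21, Rps24 and Rps29 (5 of 31 genes, 13 peaks), and the large subunit Rpl27, Rpl29, Rpl31, Rpl34, Rpl36, Rpl38 and Rplp1 (7 of 50 genes, 12 peaks). The remaining 69 members were the nearest gene of no WT peak.

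Peaks of these genes fell into separate ranges of distance. A summit lay within 1000 bp of a gene end at 8 peaks of 8 genes, and the other 17 peaks lay between 23282 and 694373 bp away, with none in between. The 8 peaks made up 32% of the 25, against 16.1% of all WT peaks and 29.2% of the peaks given to genes of the same range of lengths. Counting every summit near a member, also those given to a neighbour, 10 of 81 members (12.3%) had one within 1000 bp of an end, against 13.3% of all protein-coding genes and 8.71% of the 8615 genes of the same range of lengths. The members' share was thus below the former and above the latter, and neither difference was tested. The fold enrichment over background, which is the authors' value for each peak, ran from 3.31 to 7.28 in the 25 peaks, with a median of 4.20 against 4.004 for all WT peaks. Near gene ends the median of the members' 8 peaks was 4.77, against 3.58 for all WT peaks near an end. Further away it was 4.18 against 4.09. The 8 include the Rps29 peak (6.82), which overlaps a knockout peak. They leave out the summits near a member's end that were given to neighbours, with folds of 4.01, 2.88 and 2.87. Widths ran from 166 to 587 bp, with a median of 301 bp against 298 bp in all.

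**Figure D2:**
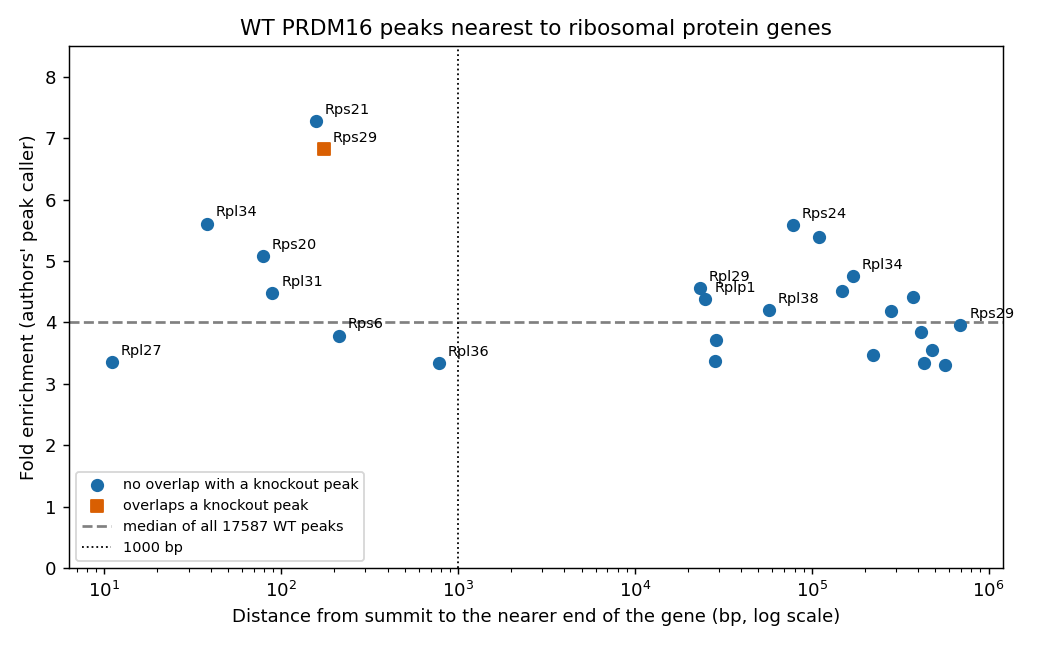
Fold enrichment of the 25 WT peaks against distance of the summit to the nearer gene end in bp (log axis), with a square for the peak that overlaps a knockout peak, circles for the others, a dashed line at the median of all WT peaks and a dotted line at 1000 bp. The 8 peaks within 1000 bp and the 17 at 23282 bp or more leave an empty stretch between them, and the strongest peaks are those of Rps21 (7.28) and Rps29 (6.82).

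At each peak, the deposited LV and RV values were resolved into reads per library. The 4 WT libraries are called LV A, LV B, RV A and RV B here, and values are normalized reads. The letters A and B carry no replicate number. Reads within all peaks ranged from 184244 (LV B) to 330443 (LV A), and the median peak held 6 to 10 reads, so that a single peak gives a coarse value. The sources used here do not give total reads of the libraries. Replicates were separate pools of ventricles.

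Among proteins of the small subunit, the strongest peak was that of Rps21, which encodes a component of the small subunit. It covered chr2:180257013-180257407 with a fold of 7.28, rank 1466 of all WT peaks, and a -log10 q of 25.0. The reads were 20.1 in LV A, 23.4 in LV B, 24.2 in RV A and 20.3 in RV B, so that the ventricles overlapped. The authors' deposited table gave 22.3 in LV and 22.8 in RV, a log2 RV over LV of 0.03 and an unadjusted p of 0.942.

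Rps20, a small subunit protein of the head domain that is among the genes mutated in Diamond-Blackfan anemia, had a peak at chr4:3835659-3836029. Its summit lay 79 bp from a gene end, inside the noncoding gene Gm32823. The fold was 5.07 and the -log10 q 14.4. Reads were 9.68 and 7.33 in LV A and B and 16.5 and 12.5 in RV A and B. Both RV libraries were above both LV libraries, as at 17.6% of all regions. This was so at no other of the 8 peaks near an end that were given to members. The authors' deposited table gave 9.001 in LV, 14.997 in RV, a log2 of 0.74 and a p of 0.345.

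The protein of Rps6 is the substrate of the S6 kinases that act below mTOR. Its peak at chr4:86857439-86858025, the widest of the 25 at 587 bp, had a fold of 3.79 and a -log10 q of 8.61. Reads were 20.8 and 22.0 in LV and 20.8 and 18.3 in RV, with LV A at 20.84 and RV A at 20.78. The LV libraries were thus above the RV libraries by a margin that nearly closed, an order found at 17.9% of all regions. The authors' deposited table gave 21.9 and 20.1, a log2 of -0.13 and a p of 0.837.

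Rps29, a zinc-binding protein of the small subunit that is also a Diamond-Blackfan gene, had the peak with the most reads of all members. The peak at chr12:69159216-69159625 had a fold of 6.82, rank 1793, and a -log10 q of 30.8. Reads were 45.4 and 52.7 in LV and 49.4 and 55.0 in RV, and the ventricles overlapped. The authors' deposited table gave 49.6 and 52.7, a log2 of 0.09 and a p of 0.832.

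The peak of Rps29 was the only peak of the 25 that overlapped a knockout peak, where 1.12% of all WT peaks did. The knockout peak at chr12:69159314-69159387 had a fold of 9.05 and a -log10 q of 12.5, and its summit fell on the same base, 69159360, as the WT summit. That base is 174 bp outside Rps29 and inside Rn7s1, a gene of the RNA of the signal recognition particle (chr12:69159295-69159593). Rn7s2, a second gene of that RNA (chr12:69361183-69361481), also held a WT peak (chr12:69361188-69361586, fold 6.51) and a knockout peak (chr12:69361423-69361498, fold 9.07), with Nemf as the nearest protein-coding gene. Reads of such near-identical copies may be split or shared by an aligner, and the sources used here do not say how these were counted. The knockout has 1 ChIP library and neither list holds values by library, so WT against knockout was not tested, and the other 24 peaks are described only as overlapping no knockout peak. Of the 330 knockout peaks, the one at Rn7s1 was the only peak with a member as nearest gene.

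Of the large subunit, Rpl34 had the strongest peak, at chr3:130730221-130730646, inside the gene and 38 bp from its 5′ end at base 130730398. The start site nearest to the summit, base 130730337, lies further inside the gene. The summit was thus upstream of that start site and downstream of the 5′ end of the gene body. The fold was 5.61, rank 3208, with a -log10 q of 24.4. Reads were 21.6 and 16.1 in LV and 20.8 and 20.3 in RV. The RV libraries lay between the LV libraries, and the authors' deposited table gave 19.4 and 21.0, a log2 of 0.12 and a p of 0.870.

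Rpl31 and Rpl27 are large subunit proteins that both appear among the Diamond-Blackfan genes. The peak of Rpl31 at chr1:39367608-39367823 had a fold of 4.47, a -log10 q of 8.48 and few reads, 4.47 and 2.93 in LV and 3.46 and 8.68 in RV. The higher value in RV came from RV B, and the authors' deposited table gave 4.20 and 6.57, a log2 of 0.65 and a p of 0.571. The peak of Rpl27 at chr11:101442093-101442295 had a fold of 3.36 and a -log10 q of 8.14. Reads were 30.5 in LV A, 8.79 in LV B, 11.3 in RV A and 7.72 in RV B. LV A was far above the other 3 libraries, which overlapped. The authors' deposited table gave 20.2 and 9.99, a log2 of -1.01 and a p of 0.160, the smallest of the 25, while without LV A the log2 value was 0.10.

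Rpl36, a small protein of the large subunit, had its peak inside the gene at chr17:56613417-56613583, 777 bp from an end and 828 bp from Lonp1. The fold was 3.34, and reads were 13.4 and 7.33 in LV and 11.3 and 14.5 in RV, which overlapped. A further summit 170 bp from the other end of Rpl36 was given to Micos13 and had a fold of 4.01. Its reads were 27.5 and 33.7 in LV and 31.2 and 14.5 in RV, which overlapped, and the authors' deposited table gave 31.1 in LV and 23.3 in RV, a log2 of -0.42. Rplp2, of the acidic stalk, and Rpl41, the shortest of the ribosomal proteins, also had summits near an end that were given to neighbours, Pidd1 and Zc3h10. The peak at Rplp2, chr7:141447385-141447677, had a fold of 2.88 and lay 110 bp upstream of the start. In the authors' deposited table it had 12.3 in LV and 14.3 in RV, a log2 of 0.21. The peak at Rpl41 lay 401 bp from an end and 1459 bp downstream of the start, with a fold of 2.87 and values of 9.35 in LV and 14.7 in RV in the authors' deposited table, a log2 of 0.65. Its reads were 7.44 and 10.3 in LV and 13.9 and 14.5 in RV. Both RV libraries were thus above both LV libraries, as at 17.6% of all regions.

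**Figure D3:**
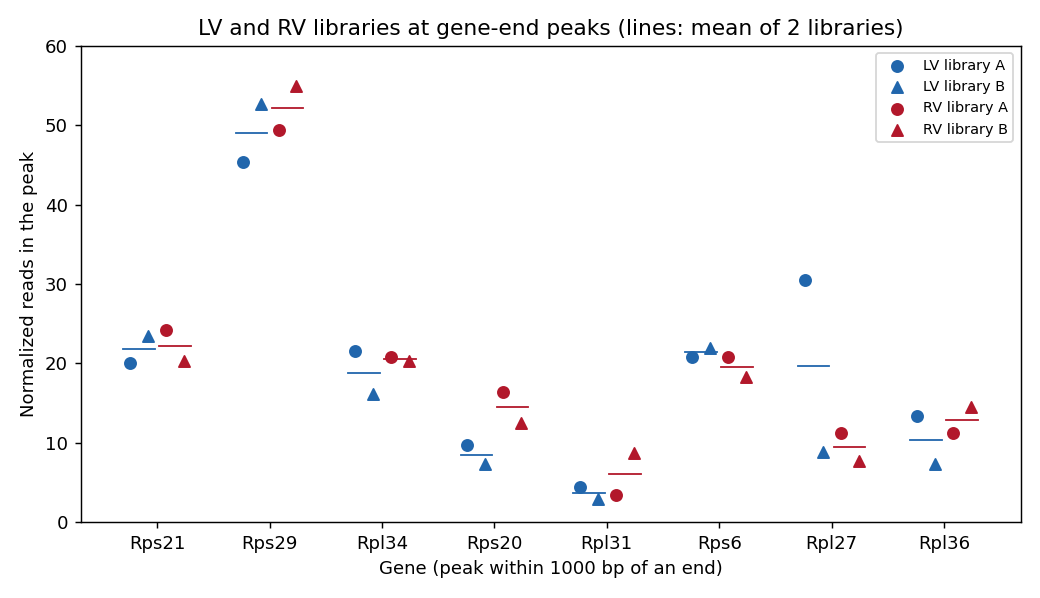
Normalized reads in each of the 4 WT libraries (LV A, LV B, RV A, RV B) at the 8 peaks within 1000 bp of an end of a ribosomal protein gene, with horizontal lines at the mean of each ventricle (the deposited values add an offset of 0.5). At Rps20 both RV libraries (16.5 and 12.5) are above both LV libraries (9.68 and 7.33), as at 17.6% of all regions. At Rpl27 LV A (30.5) stands above the other 3.

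The 17 peaks further away belonged to 6 genes. Rps24, a small subunit protein mutated in Diamond-Blackfan anemia, was nearest to 6 peaks between 78447 and 434295 bp away on chromosome 14, with folds of 5.58, 5.39, 4.18, 4.42, 3.84 and 3.34 in order of position. Rps29 had 3 such peaks at 476834 to 694373 bp, with folds of 3.31 to 3.96. Rplp1, whose acidic protein forms the stalk that binds translation factors, had 3 at 25089 to 28630 bp, all inside the noncoding gene Gm34974, with folds of 3.37 to 4.38. Rpl34 had 2 at 148867 and 170368 bp (folds 4.51 and 4.75). Rpl38, known from mouse mutants for translation of Hox mRNAs, had 2 at 57457 and 220903 bp (4.20 and 3.47), and Rpl29 had 1 at 23282 bp (4.55). At all 17, at least 1 gene of another biotype was closer than the ribosomal protein gene. The closest was a lncRNA at 14 and a pseudogene at 3, and 7 summits lay inside a noncoding gene. Being nearest is then a matter of distance among protein-coding genes and shows no link to the ribosomal protein gene.

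The strongest of these far peaks were among the 10 strongest of the family. Rps24 peak 1, chr14:24575165-24575664, had a -log10 q of 13.0 and reads of 12.7 and 8.79 in LV and 13.9 and 16.4 in RV. Both RV libraries were above both LV libraries there, as at 17.6% of all regions. Rps24 peak 2, chr14:24606920-24607218, had 7.44 and 14.7 in LV and 10.4 and 12.5 in RV, and overlapped. The peaks of Rpl34 at chr3:130878941-130879429 (9.68 and 13.2 in LV, 19.1 and 8.68 in RV) and chr3:130900407-130900892 (18.6 and 14.7 in LV, 26.0 and 16.4 in RV) overlapped too. So did that of Rpl29 at chr9:106405463-106405763 (6.70 and 8.79 in LV, 6.93 and 13.51 in RV). The -log10 q was 10.7 at Rps24 peak 2, 7.38 and 11.4 at the Rpl34 peaks and 8.68 at Rpl29. The authors' deposited table gave LV and RV values of 11.2 and 15.6 for Rps24 peak 1, 11.55 and 11.97 for peak 2, 11.9 and 14.4 then 17.1 and 21.7 for Rpl34, and 8.24 and 10.7 for Rpl29. In the authors' deposited table their log2 RV over LV was 0.48 and 0.05 for the Rps24 peaks, 0.27 and 0.34 for Rpl34 and 0.38 for Rpl29, with p from 0.534 to 0.900.

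The LV and RV comparison asked whether PRDM16 signal differs between the ventricles. No member peak was called. In the authors' deposited table, none of the 25 had an adjusted p under 0.05, where 0 of 17587 regions did (0%), and 0 of 25 had an unadjusted p under 0.05, where 0.483% did. With limma on the recovered reads, 0 of 25 passed an adjusted p of 0.05, against 0.0284% of all regions, and 1 of 25 had an unadjusted p under 0.05, against 6.32%. That was Rps24 peak 4 at chr14:24871281-24871678. Its reads were 6.70 and 4.40 in LV and 10.4 and 13.51 in RV, with a limma p of 0.0471 and an adjusted p of 0.780. Standard errors of the limma log2 differences were 0.314 to 1.0004 over the 25 peaks, so that a difference of that size could not be told from the spread between libraries at this depth.

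Individual values ran from -1.02 to 1.45 in log2 RV over LV. On the RV side the farthest was Rplp1 peak 3, chr9:61888076-61888337, with 3 and 2 whole reads in LV and 6 and 11 in RV. The authors' deposited table gave 3.08 and 8.40 with a p of 0.169. Rps24 peak 6, chr14:24931042-24931267, followed with 1.13, but from 3 and 0 reads in LV and 7 and 0 in RV. Without RV A its log2 value became -1.69. Rps24 peak 4 was the third, with 6.05 and 12.4 in the authors' deposited table, a log2 of 1.04 and a p of 0.240. On the LV side were Rps29 peak 2, chr12:68589179-68589349 (7 and 7 reads in LV, 6 and 2 in RV), with 8.23 and 4.06 in the authors' deposited table and a p of 0.344, then Rpl27, and Rplp1 peak 2, chr9:61884970-61885156 (13 and 3 reads in LV, 2 and 5 in RV), with 7.54 and 3.78 in the authors' deposited table. Rplp1 thus held a peak at each side, both within the same noncoding gene.

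**Figure D4:**
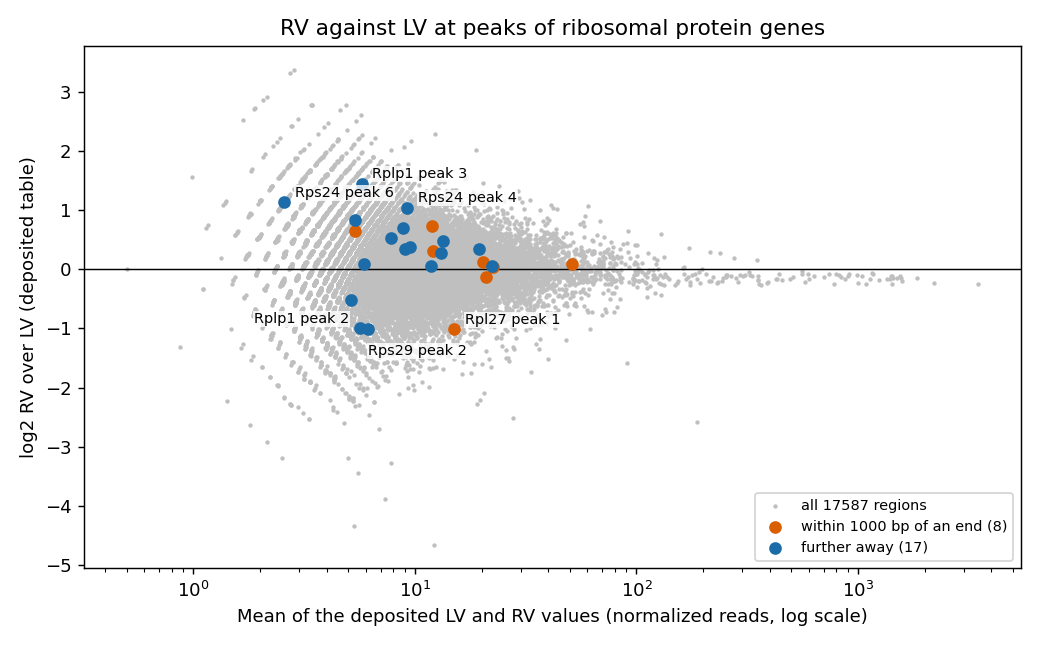
Deposited log2 RV over LV against the mean of the deposited LV and RV values in normalized reads (log axis) at all 17587 regions (grey) and at the members' peaks near (orange, 8) and far from (blue, 17) a gene end. The farthest peaks on each side are named, and all member peaks lie between -1.02 and 1.45, inside the spread of regions with like signal.

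By direction, 20 of 25 member peaks had a higher RV than LV value, where 49.8% of all regions did, and the median log2 RV over LV was 0.30 against -0.0028. Near gene ends it was 6 of 8 with a median of 0.10, and further away 14 of 17 with 0.34. With the strongest peak of each gene alone it was 10 of 12. Peaks of the same gene share their surroundings and are not independent, and no test of the list was made. Single libraries show how far this reaches. RV was above LV at 13 of 25 peaks between the A libraries (median 0.04), at 15 between LV A and RV B (0.16), at 15 between LV B and RV A (0.21), and at 17 between the B libraries (0.31). Within LV the B library differed from A by a median of -0.33 and was higher at 11 of 25, and within RV by 0.15 at 14 of 25, so the shift within LV was as large as the shift between ventricles. Over all regions the B library was higher at 47.8% within LV (median -0.019) and at 50.2% within RV (median 0.003). Both RV libraries were above both LV libraries at 5 of 25 peaks (Rps20, Rps24 peaks 1 and 4, Rpl38 peak 1 and Rplp1 peak 3), where 17.6% of all regions showed this. Both LV libraries were above both RV libraries at 2 of 25 (Rps6 and Rps29 peak 2), where 17.9% did. The higher value was in RV at 18 of 25 peaks without LV A, 14 without LV B, 16 without RV A and 14 without RV B. Over all regions the shares were 51.4%, 51.4%, 49.5% and 49.3% in the same order.

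Lists within the family and other genes of the translation machinery were counted by the same rule. The Diamond-Blackfan, paralog and stalk genes are members of the family, so their peaks are among those described above. Of 20 Diamond-Blackfan genes, 5 had a WT peak (25%): Rpl27, Rpl31, Rps20, Rps24 and Rps29. The share was 32.6% of all protein-coding genes and 15.8% of genes in the members' range of lengths. A summit lay within 1000 bp of an end at 4 of the 20 (20%), against 13.3% and 8.71%. The summit near Rps29 belongs to the peak that overlaps a knockout peak. These differences were not tested. None of the 4 listed paralogs found (Rpl10l, Rpl39l, Rpl3l and Rps27l) was the nearest gene of a WT peak. Of the 3 stalk genes only Rplp1 was, while Rplp2 was the only stalk gene with a summit within 1000 bp of an end. Of the 6 cytosolic ribosomal proteins outside the rule, Rack1 alone was nearest to a peak, 379392 bp away with a fold of 7.63. Mitochondrial ribosomal protein genes, which serve the separate ribosome of that organelle, were the nearest gene of a peak at 15 of 78 (19.2%). The strongest were those of Mrps23 (13.4, 39196 bp away), Mrps9 (8.46, inside the gene) and Mrps28 (7.10, inside the gene). Translation factors were nearest to a peak at 9 of 38 (23.7%). The strongest peak lay 24803 bp from Eef1a1 (10.0), the elongation factor that delivers aminoacyl-tRNA. The next were 58679 bp from Eif4g2 (7.60) and 10546 bp from Eif2s3x (4.46). Genes of ribosome biogenesis had one at 9 of 40 (22.5%), with Rrp1 (5.71, 779 bp away), Dkc1 (5.41, 43 bp away) and Rrp9 (5.15, 5003 bp away). Regulators of the mTOR and Myc pathways had one at 10 of 16 (62.5%), where genes have a median length of 38200 bp. The strongest were at Myc (11.5, 523311 bp away), Mycn (8.31, inside the gene) and Larp1 (6.07, 57212 bp away), the protein that binds the pyrimidine tract of ribosomal protein mRNAs. The median log2 RV over LV was 0.05 for mitochondrial ribosomal proteins, -0.10 for translation factors, -0.39 for biogenesis and -0.04 for mTOR and Myc. The lists of mitochondrial ribosomal proteins, translation factors and biogenesis lay below the 32.6% of all protein-coding genes, as the cytosolic family did. Their median lengths were 7690.5, 16315 and 13397 bp, against 17169 bp for all. Shares of genes of like length were not computed for these lists, and the differences were not tested.

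**Figure D5:**
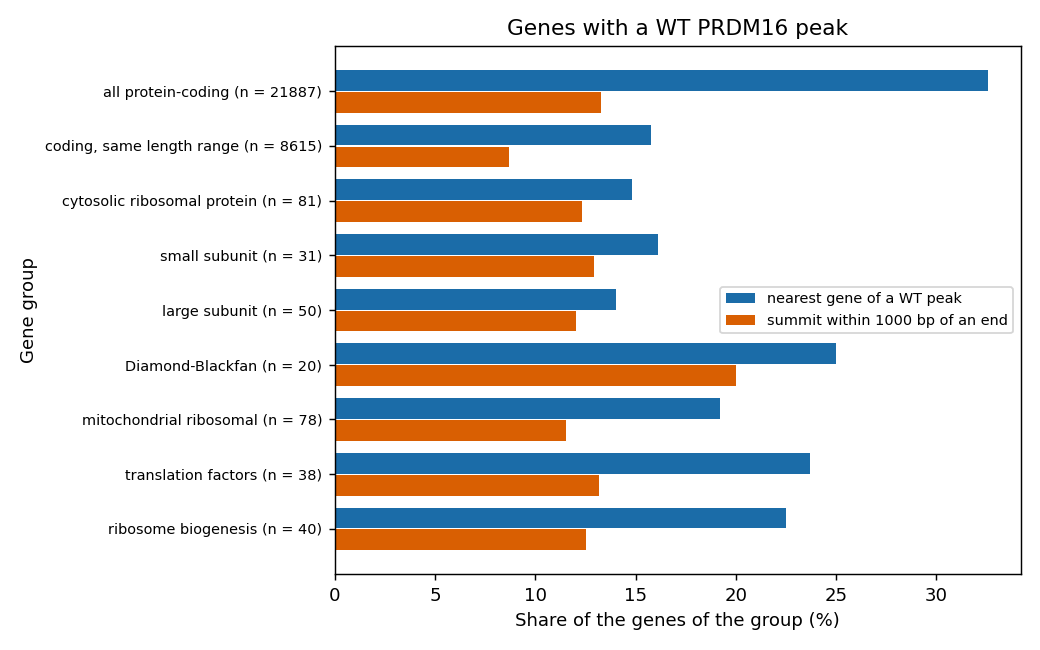
Percent of genes in each group that are the nearest protein-coding gene of a WT peak (blue bars) or have a summit within 1000 bp of an end (orange bars), with the number of genes in brackets. The cytosolic ribosomal protein genes (14.8%) are close to genes of the same length range (15.8%) in the blue bars, and all protein-coding genes (32.6%) are the highest of the groups drawn.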

How the data were processed

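PRDM16 ChIP-seq of 7 ChIP and 7 input libraries was grouped by the labels. Per the submitters' processing notes, the tools were MACS2 2.1.1.20160309, DESeq2, HOMER and BWA 0.7.12-r1039 and the build GRCm38 (mm10). Their roles, and whether replicates were pooled for peak calling, are not given in the sources used here. Deposited peak lists give a score, the ratio of ChIP to background (fold), and the -log10 q of each peak. The deposited table gives the LV and RV signal, a log2 ratio and a p-value at the 17587 WT peaks, from a test that the sources used here do not name. Each deposited signal was an offset of 0.5 added to the average of scaled whole reads of its libraries (0.744 and 1.47 normalized reads per read in LV A and B, 0.866 and 0.965 in RV A and B), with exactly 1 solution at 100% of regions (tolerance 1e-07). The limma p-values set a difference against the spread between these pools, with the variance of each region drawn towards that of regions of like signal. Which spread the deposited p-values measure is not known.

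Summits were assigned to the nearest protein-coding gene body of a RefSeq table for GRCm38, and ties to the gene with the nearest end. Peaks overlapped when they shared at least 1 bp. limma 3.58.1 (R 4.3.3) used log2 values after a pseudocount of 1 was added to the normalized reads, and Benjamini-Hochberg adjustment over all 17587 regions, and was tested on simulated data. Python 3.11.15, numpy 2.4.6, pandas 2.3.3 and matplotlib 3.10.9 did the rest. Every member nearest to a WT peak is named; full values are given for the 10 strongest peaks by fold and for the 3 farthest towards LV and towards RV, with the 3 strongest peaks of each other list. The members and lists were chosen with earlier results of these data known, and the sense-strand window for CTTTC was added after the files were seen. Input reads were not used here. Some members without a peak are not reported here by name.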

Additional observations from a re-analysis of the deposited data

How the results depend on the processing

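The count of 12 genes with a WT peak became 5 with peaks of fold at least 5 and 19 when any member within 10000 bp of a summit was counted. The 8 peaks near a gene end became 5 when distance was taken to the start sites of the promoter table, which lacks 20 members. The overlap with a knockout peak stayed at 1 when the WT summit had to lie inside a knockout peak. Requiring at least 50% of the WT peak to be covered gave 0. The knockout peak is 74 bp wide and the WT peak 410 bp, so that setting could give nothing else. The median log2 RV over LV of 0.299 was 0.103 for peaks near gene ends alone, an alternative added after seeing the data, and ranged from 0.114 to 0.303 when each library was left out in turn. No member peak was called in any of 9 limma settings, 4 of them leaving out a library; the smallest adjusted p was 0.107 without LV A. Leaving out a library leaves a ventricle with a lone library, which is assumed to vary like the other. At 16 named peaks, 3 of 80 alternative values moved by more than the spread of the libraries, and 12 had a sign other than the main value. That spread came from the same libraries at the same peak. A noisy peak was thus allowed a wider move, and the count of 3 does not show stable values. At Rpl31 the log2 value went from 0.65 to -0.08 without RV B and was not counted as moved. No paired analysis was possible because the LV and RV columns are means over libraries that carry no replicate number. Depth limits single peaks, as the median peak held 6 to 10 reads.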

Other observations

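Pseudogenes with symbols that start with Rpl or Rps and contain -ps numbered 310 in the gene table. Copies under other names were not counted. A WT summit lay within 1000 bp of 1 of the 310 and inside 0. The share among other pseudogenes was not computed, so the count cannot be called high or low. Median GC content was 57.7% in the 73 promoter windows of ribosomal protein genes and 56.3% in the windows of all protein-coding genes, and CpG numbered 7 and 4.33 per 100 bases. In windows with a summit within 250 bp of the start, GC content was 62.3% in both sets, with 8.17 and 7 CpG per 100 bases. These values are given without a test.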
